A study of Mus musculus with 18 samples.

Results

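The genes of the TGF-β, BMP and activin signaling pathways were examined in mouse oocytes, as 55 of the 28252 genes for which TPM (transcript levels scaled for gene length and library size) were deposited. They were chosen by gene symbol alone, as every TGF-β, BMP, GDF and inhibin or activin ligand, *Amh*, every receptor and Smad, and every follistatin and latent TGF-β binding protein gene whose symbol follows the family names, with *Gdf9* and *Bmp15* left out. The 55 genes comprised 23 ligand genes, 9 genes of the follistatin and latent TGF-β binding protein families, 13 receptor genes and 8 Smads, plus 2 genes, *Bmp1* and *Bmp2k*, that carry a BMP name but encode a protease and a kinase. RNA was measured in 18 libraries, 3 in each of 6 groups, all from C57Bl/6j x CBA/J mice: oocytes from primordial follicles, from primary follicles, and at MII (metaphase II, the mature stage), with *in vivo* and *in vitro* groups for each stage. Per the study's methods, the primordial and primary oocytes were cut from ovarian sections by laser capture microdissection (LCM), from uncultured ovaries of mice aged 14 days in the *in vivo* groups and from ovaries taken at 7 days of age and cultured for 7 days in the *in vitro* groups, and the RNA of many cut oocytes of a stage was pooled. MII oocytes of the *in vivo* group came from adult females after hormone injection, those of the *in vitro* group from ovary culture followed by 12 days of culture of isolated follicles in alginate, with 10 oocytes to an MII library. The media of both cultures held fetal bovine serum, recombinant FSH (follicle stimulating hormone) and a supplement of insulin, transferrin and selenium. Oocytes were released by hCG (chorionic gonadotropin) added to the follicle cultures, and *in vivo* by injected menopausal gonadotropin and then hCG. No label says whether the 3 libraries of a group came from separate animals or cultures, so each p-value measures the spread between these libraries, which may be technical.

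In these pathways a secreted dimeric ligand brings type II and type I receptor kinases together, and the type I receptor phosphorylates a receptor-activated Smad, which enters the nucleus with the common partner *Smad4*. TGF-βs and activins act through *Smad2* and *Smad3*, BMPs through *Smad1*, *Smad5* and *Smad9*, and *Smad6* and *Smad7* are inhibitory Smads that these pathways induce as feedback. In the ovary, oocyte ligands of this family act on the surrounding granulosa cells, and granulosa cells make inhibins, activins, follistatin and AMH.

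LCM libraries had total counts of 15149564 to 29205503, and MII libraries of 7334817 to 9978830. A gene was treated as seen in a library above 3 reads, which is 0.103 to 0.198 CPM (counts scaled to library size) in the LCM and 0.301 to 0.409 CPM in the MII libraries; these floors cover counting error only. LCM and MII libraries were made with different kits, the former by capture with probes after amplification, so stage and kit cannot be told apart and MII was tested against no other stage. Oocyte markers were present as labelled, with 11 to 14 of 14 above 3 reads in every LCM library and 12 or 13 in every MII library. Their summed TPM was 329 to 1619 in LCM and 6237 to 9230 in MII libraries. The LCM libraries also held markers of other ovarian cells. The summed TPM of 10 granulosa markers was 263 to 2130 in LCM and 27.4 to 76.5 in MII libraries, with *Fshr* at 0 in all 12 LCM libraries, and that of 10 theca and stroma markers was 453 to 29940 in LCM and 1.3 to 5.02 in MII libraries. In the LCM libraries *Col1a1*, *Col1a2*, *Col3a1* and *Acta2* made up most of the latter sum. The theca markers *Cyp17a1*, *Star* and *Cyp11a1* reached at most 0.4, 0.39 and 5.7 TPM there. The sum of 4 erythrocyte (hemoglobin) markers was 1157 to 7508 TPM in the primary *in vivo* libraries, 0 to 174 in the primary *in vitro*, 0 to 398 in the primordial *in vivo* and at most 0.383 in the primordial *in vitro* libraries. In bulk RNA, fewer cells of a type and less RNA per cell cannot be told apart.

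Replicates differed in how many of the 55 genes they showed. Between 18 and 31 of the 55 genes were above 3 reads in the 6 primordial libraries and between 26 and 33 in the 6 MII libraries. In oocytes of primary follicles, replicates 1 to 3 of the *in vivo* group showed 12, 37 and 22 of the genes and those of the *in vitro* group 38, 32 and 37. Replicate 1 of the primary *in vivo* group stood apart, with no read on any of the 23 ligand genes. That library also had the fewest genes above 3 reads of all 18, 4842. In the primary *in vitro* group, 28 of the 55 genes were above 3 reads in all 3 libraries, against 16 in the primordial *in vivo*, 14 in the primordial *in vitro* and 9 in the primary *in vivo* group (21 in its replicates 2 and 3). The share of all genes moved with it, at 25.9% in the primary *in vitro* group and 16.6%, 13.1% and 11.9% in the other 3. So did the number of granulosa markers above 3 reads, 7 to 9 of 10 in the primary *in vitro* and 4 to 6 in the other LCM libraries. For theca and stroma markers these numbers were 7 to 10 and 4 to 8. The summed granulosa TPM did not move with it, at 775 to 852 in the primary *in vitro* libraries. It was highest, at 2130, in primary *in vivo* replicate 1. The part of other cells' RNA in the count was not tested. Of the 28 genes, 9 were in all 3 libraries of no other LCM group: *Acvr2a*, *Acvrl1*, *Bmp3*, *Bmp6*, *Bmp7*, *Inha*, *Inhbb*, *Smad7* and *Tgfbr2*. The same count was not made over all genes, and *Acvrl1* and *Inhbb* had as few as 5 and 4 reads in a primary *in vitro* library.

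**Figure D1:**
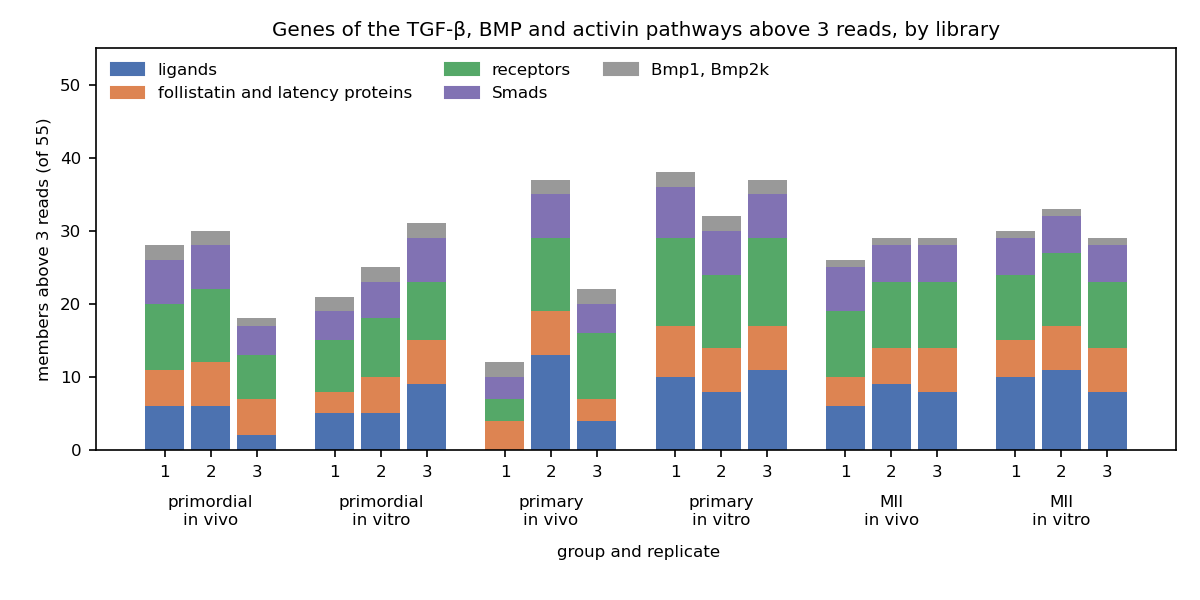
Number of the 55 genes above 3 reads (y axis) in each of the 18 libraries (x axis, by group and replicate), with the bar split by role. Primary *in vivo* replicate 1 has the lowest bar, 12, with no ligand in it, and the 3 primary *in vitro* libraries reach 38, 32 and 37.

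A signal that was high in a single LCM library was common. In the primordial *in vivo* group, 28 genes reached 100 reads in some library, and 13 of these (46.43%) had 3 reads or fewer in one of the other replicates, with corresponding shares of 58.62% for primordial *in vitro*, 70.97% for primary *in vivo* and 27.03% for primary *in vitro* oocytes. The same shares over all genes of the count table were 45.05%, 51.41%, 60.11% and 29.04%. In MII oocytes none of the 21 (*in vivo*) and 22 (*in vitro*) such genes had that pattern, against 0.86% and 0.43% over all genes. Of the 48 genes with any LCM read, 24 had over 50% of their LCM reads in 1 library, a share that was not computed over all genes.

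**Figure D2:**
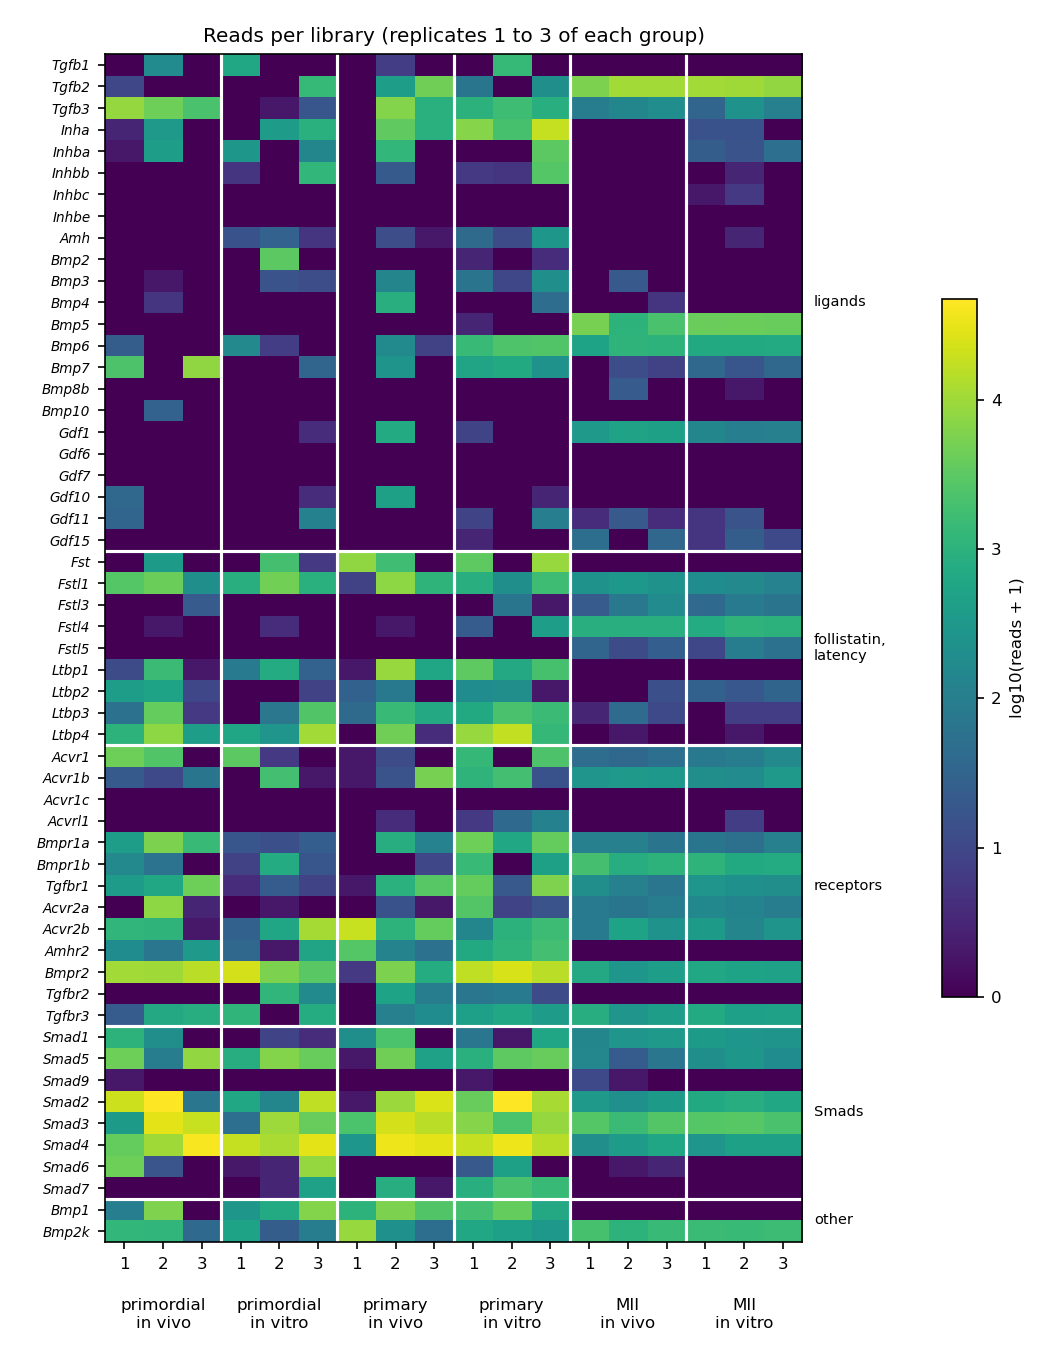
Reads of the 55 genes (rows, by role) in the 18 libraries (columns, replicates 1 to 3 of each group), as log10(reads + 1). MII columns look alike within each group, *Bmp5*, *Fstl4* and *Fstl5* are bright or visible almost only in them, and many genes of the LCM columns are bright in one replicate and dark in the next.

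In MII oocytes, the pathway RNA was mostly ligand RNA. The 55 genes summed to 1181 to 1433 TPM in the MII libraries, of which ligands made up 59.4% to 67.5%, Smads 11.7% to 19.4%, receptors 7.47% to 14.3% and the follistatin and latency group 4.55% to 7.17%. Of the 55 genes, 24 were above 3 reads in all 6 MII libraries: 5 ligands, 4 follistatin genes, 9 receptors, 5 Smads and *Bmp2k*. This was 43.6% of the 55, against 36.6% of all genes with TPM. In the LCM libraries the sum was 1190 to 4582 TPM and Smads took the largest median share, 63.6% (4.96% to 78.3%), with ligands at 10.0% (0.0% to 44.9%, the lowest in primary *in vivo* replicate 1).

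*Tgfb2*, which encodes the TGF-β2 ligand (GRCm38 chromosome 1, 186622792 to 186705989, minus strand), had the highest mean TPM of the 55 genes in MII oocytes. Its level was 272, 627 and 556 TPM in the *in vivo* and 433, 502 and 441 TPM in the *in vitro* libraries, and the groups overlapped. *Bmp5*, a BMP ligand (chromosome 9, 75775364 to 75900310, plus strand), came next, at 367, 88.2 and 158 TPM *in vivo* and 241, 294 and 291 TPM *in vitro*. The 3 *in vitro* libraries lay inside the wide *in vivo* range. These 2 genes together made up 49.9% to 57.0% of the summed TPM of the 55 genes in every MII library, while in the 12 LCM libraries *Bmp5* had 2 reads in all and *Tgfb2* exceeded 3 reads in 6. The difference in *Tgfb2* between the MII groups was 0.02 log2 (SE 0.35, edgeR adjusted p = 0.993), and that in *Bmp5* was 0.41 (SE 0.48, edgeR adjusted p = 0.824).

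*Bmp6*, a BMP ligand close to *Bmp5* in sequence, lay at 36.9, 96.3 and 81.5 TPM in the MII *in vivo* and 42.4, 51.3 and 56.9 TPM in the *in vitro* libraries. *Gdf1*, a ligand that acts with Nodal in the early embryo, lay at 67.6, 125 and 98.2 TPM *in vivo* and 24.0, 21.3 and 24.6 TPM *in vitro*. Only *Gdf1* of these ligands had groups that did not overlap. Of the 23 ligand genes, 9 exceeded 3 reads in no MII library (*Amh*, *Bmp2*, *Bmp10*, *Gdf6*, *Gdf7*, *Gdf10*, *Inhbb*, *Inhbe* and *Tgfb1*). Over all genes with TPM, 34.4% exceeded 3 reads in no MII library.

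Among the binding proteins, *Fstl4*, a follistatin-like gene, lay between 39.9 and 71.4 TPM in the MII libraries, with overlapping groups. *Fst*, the activin-binding follistatin, had no read in any MII library, although it was among the 10 highest of the 55 genes in LCM oocytes, and *Ltbp1* and *Ltbp4*, whose products hold latent TGF-β in the matrix, had at most 1 read in each MII library.

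Type I receptors of each branch were present in MII oocytes, but not every type II receptor was. *Bmpr1b*, a type I BMP receptor, was the highest, at 93.7, 45.2 and 52.2 TPM *in vivo* and 44.5, 33.2 and 38.9 TPM *in vitro*. The BMP type II receptor *Bmpr2* lay between 5.41 and 10.2 TPM, and the activin type II receptors *Acvr2a* and *Acvr2b* between 3.77 and 6.39 and between 5.80 and 44.7 TPM. *Tgfbr2*, the type II receptor through which TGF-βs signal, had no read in any of the 6 MII libraries, where *Tgfb2* was the highest of the 55 genes and the type I receptor *Tgfbr1* (68 to 272 reads) and the co-receptor *Tgfbr3* (272 to 826 reads) were above 3 reads in all 6. A count of 0 allows up to 3 reads, and *Tgfbr2* was above 3 reads in 7 of the 12 LCM libraries. *Amhr2*, the AMH receptor, also had no read in any MII library and exceeded 3 reads in 11 LCM libraries.

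*Smad3* was the highest Smad in MII oocytes (139.6, 92.8 and 143 TPM *in vivo* and 118, 151 and 119 TPM *in vitro*). *Smad2*, the other mediator of TGF-β and activin signals, was lower, at 26.5, 21.3 and 29.1 TPM *in vivo* and 46.6, 65.3 and 52.6 TPM *in vitro*. *Smad4* lay between 15.6 and 45.7 TPM. The BMP-branch Smads *Smad1* and *Smad5* were between 6.20 and 16.3 TPM and between 0.994 and 11.6 TPM. Neither inhibitory Smad exceeded 3 reads in an MII library: *Smad7* had no read in any of the 6 and *Smad6* had 0, 1 and 2 reads *in vivo* and none *in vitro*.

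**Figure D3:**
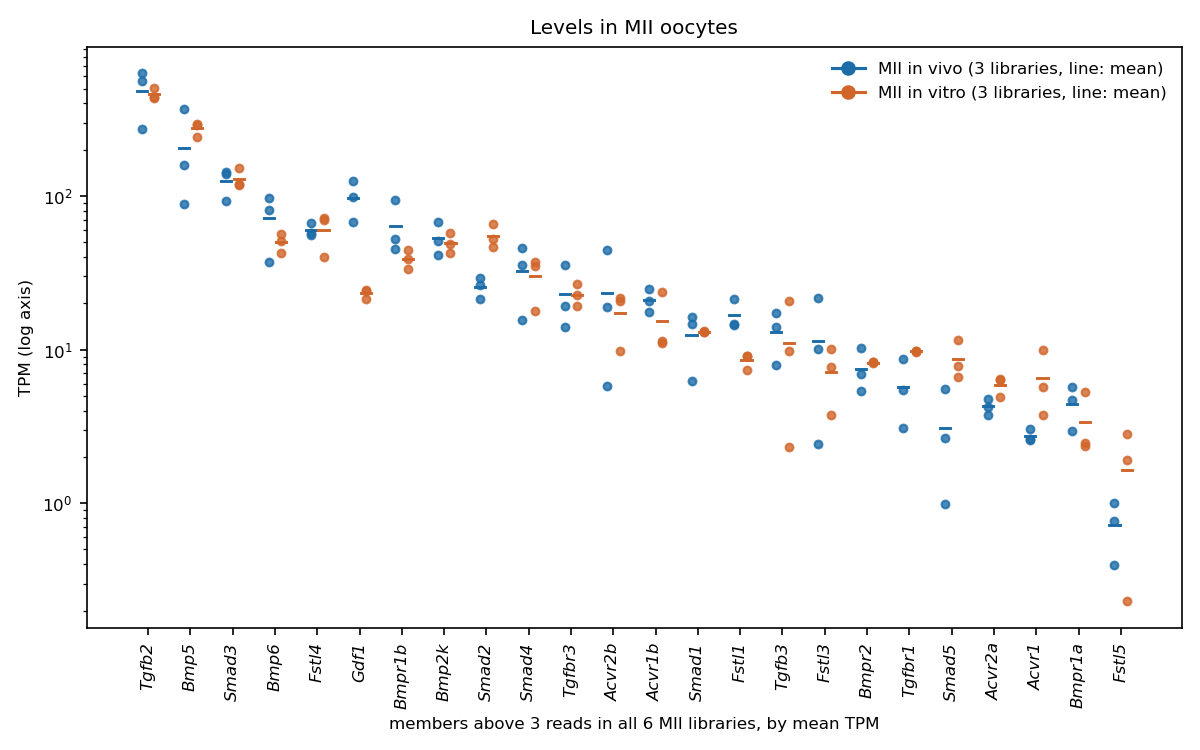
TPM (log axis) of the 24 genes above 3 reads in all 6 MII libraries, ordered by mean TPM, with a point per library and a line at each group's mean. *Tgfb2* and *Bmp5* are at the left, *Fstl5* at the right, and *Gdf1* (*in vivo* above) and *Smad2* (*in vitro* above) show separated groups.

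In MII oocytes, setting the *in vitro* against the *in vivo* group found no member past both thresholds, which were an adjusted p below 0.05 and at least a 2-fold difference, among the 34 with at least 10 reads in total, where edgeR's quasi-likelihood test called 0.35% of all genes tested. At an unadjusted p under 0.05 there were 5 members (4 higher and 1 lower *in vitro*), against 10.2% of all genes, and 8 of 34 had groups that did not overlap in CPM, against 16.2% of all genes. The median log2 fold change was -0.02 over the members and 0.04 over all genes tested. DESeq2 called 2 of the 31 members to which it gave an adjusted p, *Gdf1* and *Inhba* (2.28% of all genes by this tool), and limma-voom called the same 2 of 34 (2.96% of all genes).

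*Gdf1* had the smallest p of the members. Its reads numbered 324, 502 and 448 *in vivo* and 137, 101 and 108 *in vitro*, or 48.4 ± 10.9 against 12.5 ± 3.19 CPM (SD, n = 3 each). All 3 *in vitro* libraries were below all 3 *in vivo* libraries. The log2 fold change was -1.95 (SE 0.42, edgeR adjusted p = 0.0823), and DESeq2 gave -1.97 (adjusted p = 0.000714) and limma-voom -2.07 (adjusted p = 0.0127). Without *in vivo* replicate 1, edgeR called 2 members, *Gdf1* at -2.09 (adjusted p = 0.0291) and *Bmp5* at 1.31 (adjusted p = 0.0498), with 2.25% of all genes called. *Gdf1* (chromosome 8, 70329817 to 70331587, plus strand) lies inside *Cers1*, a ceramide synthase gene on the same strand that is known to share a transcript with it, and overlaps *Upf1*, an RNA helicase gene of nonsense-mediated decay on the opposite strand. *Cers1* had 362, 559 and 505 reads *in vivo* and 162, 106 and 126 *in vitro*, and *Upf1* 2185, 3403 and 3460 *in vivo* and 935, 725 and 677 *in vitro*. All 3 genes were therefore lower in every *in vitro* library, with log2 fold changes of -1.92 (edgeR adjusted p = 0.0834) for *Cers1* and -2.02 (edgeR adjusted p = 0.0207) for *Upf1*. Whether reads were counted by strand is not given in the sources used here, so reads from the stretches these genes share cannot be told apart. In the primordial *in vivo* libraries, made with the other kit, *Upf1* had 11760, 5288 and 918 reads, while *Gdf1* and *Cers1* had 0 in each. The part of *Upf1* and *Cers1* reads in the MII counts of *Gdf1* was not tested.

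*Inhba*, the subunit gene of activin A and inhibin A (chromosome 13, 16011851 to 16031621, plus strand), had no read in any MII *in vivo* library and 23, 15 and 51 reads in the *in vitro* libraries. The mean of 3.27 ± 2.21 CPM *in vitro* (SD, n = 3) was at least 9.54-fold higher than the floor of the *in vivo* group, 3 reads per library, at an edgeR adjusted p of 0.153. *Inha*, the inhibin α subunit, had no read *in vivo* and 14, 14 and 0 reads *in vitro*, a mean at least 2.87-fold above that floor (edgeR adjusted p = 0.471), so it was seen in the first 2 *in vitro* libraries only. Both genes are known for their expression in granulosa cells, whose summed marker level was 42.8 to 76.5 TPM in the *in vivo* MII libraries and 27.4 to 60.0 TPM in the *in vitro* ones. Of the 10 markers, *Foxl2* and *Gatm* were at 0 in all 6 libraries, while *Cyp19a1* (17.5 to 64.7 TPM), *Nr5a2* (3.91 to 12.1 TPM) and *Kitl* (1.53 to 7.95 TPM) were above 0 in all 6, and *Cyp19a1* made up most of the sum. *Fshr*, the granulosa FSH receptor, was at 0, 0 and 3.27 TPM *in vivo* and 1.25, 6.42 and 2.95 TPM *in vitro*. The part of granulosa RNA in the *Inhba* and *Inha* values was not tested.

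*Smad2* had 334, 225 and 349 reads in MII oocytes grown *in vivo*, against 699, 816 and 609 after culture. Every *in vitro* library exceeded every *in vivo* library, at 75.5 ± 6.56 against 34.3 ± 6.62 CPM (SD, n = 3), and the log2 fold change was 1.14 (SE 0.35, edgeR adjusted p = 0.279). *Smad5*, its counterpart in the BMP branch, had 146, 22 and 67 reads *in vivo* and 209, 302 and 189 *in vitro*. These groups did not overlap either, with a log2 fold change of 1.45 (SE 0.61, edgeR adjusted p = 0.459). The common partner *Smad4* (-0.06, SE 0.41) and *Smad3* (0.09, SE 0.33) had differences smaller than their errors. The other 4 members with separate groups were *Acvr1*, a type I receptor (45, 37 and 50 reads *in vivo* and 77, 97 and 157 *in vitro*), *Fstl1*, *Bmp7* and *Ltbp2*. Their log2 fold changes were 1.25, -0.89, 2.13 and 2.57 (edgeR adjusted p = 0.495, 0.501, 0.561 and 0.555). *Bmp7* and *Ltbp2* had at most 35 reads in a library, and *Ltbp2* is named after its values were seen.

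**Figure D4:**
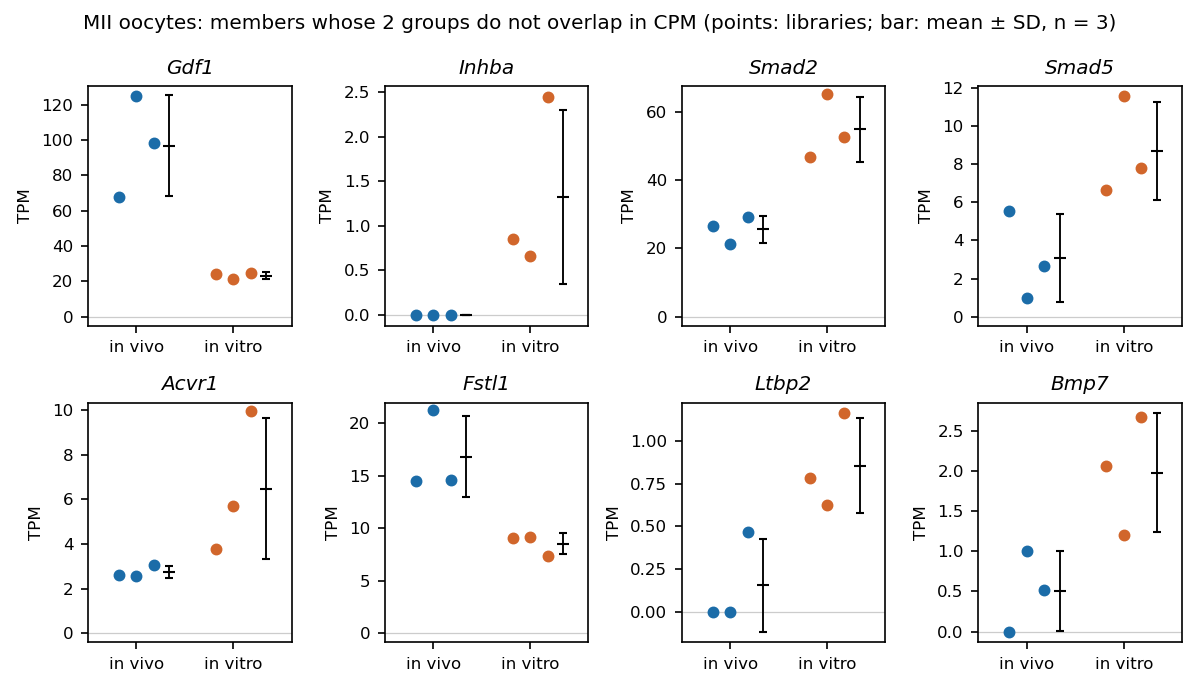
TPM of the 8 members whose MII groups did not overlap in CPM, with a point per library and a bar for mean ± SD (n = 3). *Gdf1* and *Fstl1* are higher *in vivo* and the other 6 higher *in vitro*, with *Inhba* at 0 in the 3 *in vivo* libraries, and edgeR called none of the 8.

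In oocytes of primordial and primary follicles, the most abundant members were Smads. The levels below are in TPM, given as the lowest, the median and the highest of the 12 LCM libraries. *Smad4* ran from 10.9 through 893 to 1596 and *Smad2* from 0.0405 through 380 to 1841. *Smad3* ran from 1.91 through 185 to 796. The ranges of the 4 groups overlapped for all 3, and primary *in vivo* replicate 1 was the lowest of the 12 for *Smad4* and *Smad2*. Of these genes, *Smad4* and *Smad3* were above 3 reads in all 12 libraries, as were *Fstl1*, *Bmpr2* and *Bmp2k*. Together they were 9.09% of the 55 genes, against 6.61% of all genes with TPM.

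Type II receptors led the receptors in the LCM oocytes, again in TPM. *Acvr2b* ran from 0.0345 through 38.6 to 709 and *Bmpr2* from 0.040 through 84.2 to 279. Primary *in vivo* replicate 1 held the highest *Acvr2b* value and the lowest *Bmpr2* value. Among the binding proteins, *Fstl1* ran from 0.205 through 39.8 to 209, *Ltbp4* from 0 through 24.2 to 359 and *Fst* from 0 through 7.45 to 340. *Tgfb3* ran from 0 through 48.7 to 371, and had the highest mean of the TGF-β ligands in 3 of the 4 LCM groups, but in primordial *in vitro* oocytes the lowest, at 0.272 TPM against 12.1 for *Tgfb2* and 8.73 for *Tgfb1*. Of the 55 genes, 10 exceeded 3 reads in no LCM library: *Bmp5*, *Bmp8b*, *Gdf6*, *Gdf7*, *Gdf15*, *Inhbc*, *Inhbe*, *Fstl5*, *Acvr1c* and *Smad9*. This was 18.2% of the 55, against 41.3% of all genes with TPM.

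For oocytes of primordial follicles, edgeR called no member between the *in vitro* and *in vivo* groups among 45 tested, with 0.0326% of all genes called. At an unadjusted p under 0.05 there were 9 members, 5 higher and 4 lower *in vitro*, against 11.7% of all genes, and 5 members had groups that did not overlap, against 6.59% of all genes. The median log2 fold change was 0.32 over the members and 0 over all genes. limma-voom called 1 member, *Tgfb3* (0.202% of all genes), and DESeq2 called 6 of the 32 members with an adjusted p, with *Amh*, *Smad7* and *Tgfbr2* higher and *Bmpr1a*, *Tgfb3* and *Tgfbr1* lower *in vitro* (9.3% of all genes).

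*Tgfb3*, which encodes the TGF-β3 ligand (minus strand of chromosome 12, 86056745 to 86079041), was counted at 8635, 4381 and 2198 reads in the primordial *in vivo* libraries and 0, 1 and 17 in the *in vitro* libraries. Every *in vitro* library lay far below every *in vivo* library, at 0.286 ± 0.464 against 216 ± 136 CPM (SD, n = 3). The log2 fold change was -9.52 (SE 3.59, edgeR adjusted p = 0.359), with -9.66 by DESeq2 (adjusted p = 0.000237) and -10.65 by limma-voom (adjusted p = 0.0201). Its neighbour *Ttll5*, overlapping from the other strand, was at 73, 10568 and 17682 reads *in vivo* and 80, 1430 and 1522 *in vitro*. In oocytes of primary follicles, *Tgfb3* had 0, 6415 and 927 reads *in vivo* and 1026, 1643 and 874 *in vitro*. The difference between the culture effects at the 2 stages was 8.30 log2 (SE 4.00, edgeR adjusted p = 0.396).

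The other members with the smallest p at the primordial stage each rested on 1 or 2 libraries. *Acvr2a*, an activin type II receptor, had 0, 7689 and 2 reads *in vivo* and 0, 1 and 0 *in vitro*. *Bmp2*, a BMP ligand, had reads only in *in vitro* replicate 2, 3115 of them. *Inhbb*, the activin βB subunit, was without a read *in vivo*, with 4, 0 and 1270 *in vitro*. *Tgfbr2* was likewise unread *in vivo*, with 0, 1199 and 174 reads *in vitro*. Their adjusted p was 0.359 in edgeR, as for *Tgfb3*. In each of the 4 at least 1 library of the higher group had at most 4 reads. *Bmpr1a* and *Tgfbr1*, type I receptors of the BMP and the TGF-β branch, were more even, with 416, 5669 and 1497 reads against 17, 13 and 24 for *Bmpr1a* and 366, 613 and 4373 against 3, 22 and 8 for *Tgfbr1* (*in vivo* against *in vitro*). Their groups did not overlap, and their edgeR adjusted p were 0.434 and 0.387. *Amh*, the granulosa hormone of growing follicles, had no read *in vivo* and 14, 28 and 4 *in vitro* (edgeR adjusted p = 0.414).

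For oocytes of primary follicles, edgeR called no member of 45 between the *in vitro* and *in vivo* groups and 0% of all genes. The erythrocyte markers separated these groups, with every *in vivo* library above every *in vitro* library, and their part in the differences between the groups was not tested. At an unadjusted p under 0.05 there were 5 members, all higher *in vitro*, against 9.66% of all genes, and 4 members had groups that did not overlap (*Bmpr2*, *Acvrl1*, *Bmp6* and *Tgfbr3*), against 9.99% of all genes. The median log2 fold change was 0.78 over the members and 0.44 over all genes. DESeq2 and limma-voom called no member either, with 2.86% and 1.94% of all genes called. They had 5 and 14 members at an unadjusted p under 0.05. Without *in vivo* replicate 1, which had few of the genes, edgeR still called none and 2 members had an unadjusted p under 0.05. The shares of all genes at an unadjusted p under 0.05 were not computed for these 3 fits.

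*Bmp6* had 0, 164 and 7 reads in the primary *in vivo* and 1466, 2449 and 2511 in the *in vitro* libraries. All 3 *in vitro* libraries were above all 3 *in vivo* libraries, at 77.1 ± 29.0 against 2.32 ± 3.70 CPM (SD, n = 3) and a log2 fold change of 5.05 (SE 3.61, edgeR adjusted p = 0.674). *Bmpr2* had 5, 5787 and 773 reads *in vivo* and 17269, 24871 and 15532 *in vitro*. Its groups did not overlap, at a log2 fold change of 2.95 (SE 1.72, edgeR adjusted p = 0.566). The 5 members with the smallest p were *Smad6*, *Fstl3*, *Gdf11*, *Acvr1* and *Fstl4*, at edgeR adjusted p from 0.440 to 0.504. Each of them had at most 1 read in at least 1 *in vitro* library. *Acvr1*, for example, had 1, 11 and 0 reads *in vivo* and 1299, 0 and 2352 *in vitro*, and *Gdf11*, a ligand of the activin branch, none *in vivo* and 8, 0 and 98 *in vitro*.

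The stages were compared as the 6 primary against the 6 primordial libraries, over both conditions. edgeR called no member of 45 and 0% of all genes. At an unadjusted p under 0.05 there were 8 members, 6 higher and 2 lower in primary oocytes, against 12.4% of all genes, and the median log2 fold change was 1.26 over the members and 0.34 over all genes. DESeq2 called *Smad7*, 1 of 32 members with an adjusted p (7.42% of all genes), and limma-voom none (0.294% of all genes). limma-voom had 6 members at an unadjusted p under 0.05, a share not computed over all genes for this tool.

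*Inha* was the ligand gene with the highest mean TPM in the LCM oocytes. In primordial oocytes it had 2, 342 and 0 reads *in vivo* and 0, 379 and 946 *in vitro*, and in primary oocytes 0, 3469 and 918 reads *in vivo* and 6712, 2041 and 18330 *in vitro*. The 3 primary *in vitro* libraries were above all 6 primordial libraries, while the primary *in vivo* libraries spanned the whole primordial range. The log2 fold change between stages was 3.88 (SE 1.95, edgeR adjusted p = 0.395). *Inha* is known as a granulosa gene, and the summed TPM of the granulosa markers was 775 to 852 in the primary *in vitro*, 263 to 2130 in the primary *in vivo*, 405 to 832 in the primordial *in vivo* and 322 to 1576 in the primordial *in vitro* libraries. The part of granulosa RNA in the *Inha* values was not tested.

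*Acvrl1*, a type I receptor known from endothelium, had no read in the 6 primordial libraries and 0, 3 and 0 reads in primary *in vivo* and 5, 39 and 111 in primary *in vitro* oocytes (edgeR adjusted p = 0.245). The summed TPM of 4 endothelial markers had its lowest median in the primary *in vitro* libraries, at 0.406 (0.178 to 14.02), and the part of endothelial RNA in the *Acvrl1* values was not tested. *Bmp4*, a BMP ligand, exceeded 3 reads in 3 of the 12 libraries, with 851 of its 900 LCM reads in primary *in vivo* replicate 2 (edgeR adjusted p = 0.246). *Gdf1* had 732 of its 743 LCM reads in that same library (edgeR adjusted p = 0.312), which is also the number of reads counted there for *Cers1*. It is also the library with the highest theca and stroma markers, at 29940 summed TPM (*Acta2* 18521 and *Col1a1* 9734) against 453 to 3524 in the other 11 LCM libraries, and their part in the *Bmp4* and *Gdf1* values was not tested.

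The inhibitory Smads had unlike patterns in LCM oocytes. *Smad7*, which blocks TGF-β and BMP receptors, had no read in the 3 primordial *in vivo* libraries and 0, 2 and 483 in the *in vitro* libraries, and in primary oocytes 0, 823 and 1 *in vivo* and 907, 2116 and 1463 *in vitro*. It was thus above 3 reads in all 3 libraries of the primary *in vitro* group only, and there at 29.0, 61.9 and 40.3 TPM. For *in vitro* against *in vivo*, edgeR's adjusted p was 0.359 at the primordial stage, where the higher mean came from 1 library, and 0.948 at the primary stage, and between stages the log2 fold change was 6.91 (SE 2.71, edgeR adjusted p = 0.245). At the primordial stage the *in vitro* mean was at least 59.1-fold above the *in vivo* floor of 3 reads per library, with nearly all of its reads in 1 library. DESeq2 gave *Smad7* a log2 fold change of 13.72 between the stages (higher in primary, DESeq2 adjusted p = 2.25e-08). For culture at the primordial stage it gave 24.26 (higher *in vitro*, DESeq2 adjusted p = 1.82e-12), with no read in the *in vivo* group. The difference between the culture effects was -21.95 (DESeq2 adjusted p = 2.13e-05).

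*Smad6*, which blocks mainly BMP signals, had 4471, 16 and 0 reads in primordial *in vivo* and 1, 2 and 8789 in primordial *in vitro* libraries, against none in the primary *in vivo* and 19, 452 and 0 in the primary *in vitro* libraries. Its high values thus came from 1 library in each primordial group. It had the smallest p of the members between stages, at a log2 fold change of -8.97 (SE 2.72, edgeR adjusted p = 0.157). At the primary stage the cultured libraries averaged 6.71 ± 11.1 CPM (SD, n = 3), at least 43.9-fold above the *in vivo* floor of 3 reads per library, with 1 of the 3 *in vitro* libraries at 0 (edgeR adjusted p = 0.440).

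**Figure D5:**
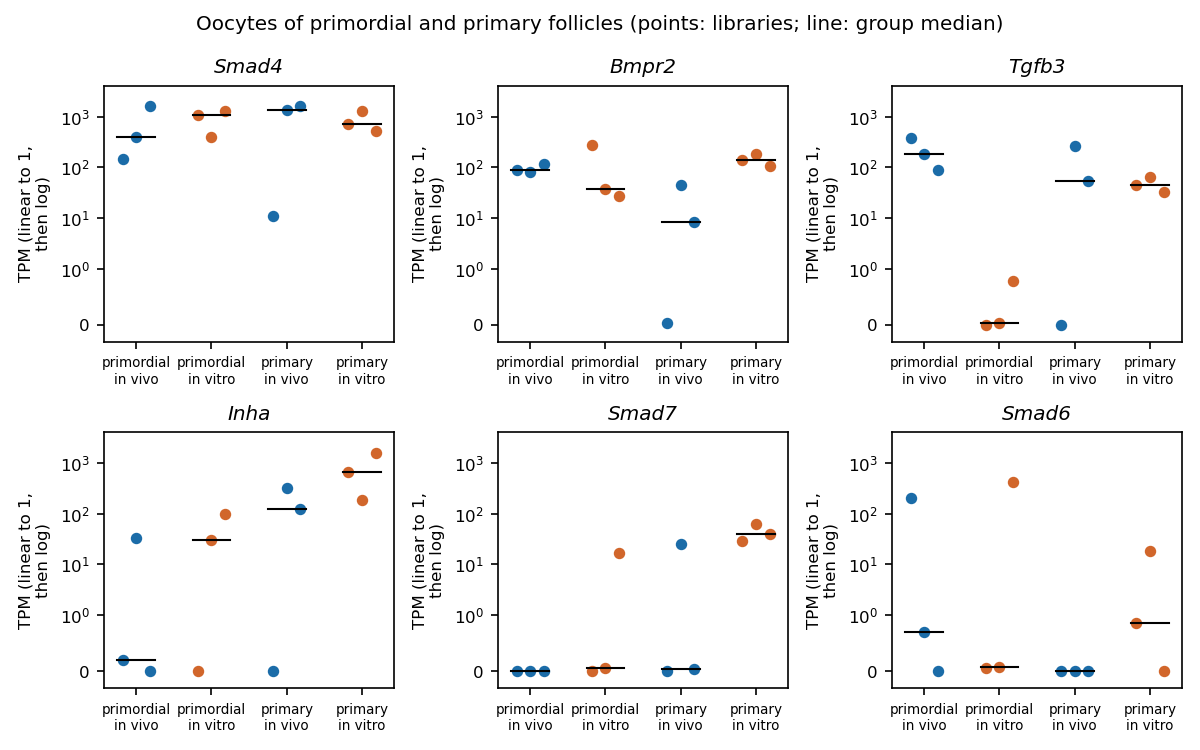
TPM of 6 members in the 12 LCM libraries (y axis linear up to 1, then logarithmic), with a point per library and a line at the group median. *Smad4* is high nearly throughout, *Tgfb3* is near 0 in the primordial *in vitro* group, *Inha* and *Smad7* are highest in median in the primary *in vitro* group, and *Smad6* is high in single libraries.

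Whether culture acted differently at the 2 stages was tested as the culture effect in primary minus that in primordial oocytes, on the same 12 libraries. edgeR called no member of 45 and 0.104% of all genes, and at an unadjusted p under 0.05 there were 10 members, 6 with a positive and 4 with a negative difference, against 11.5% of all genes. The median difference was 0.85 log2 over the members and 0.91 over all genes. DESeq2 called 3 of 32 members, *Bmpr1a* (positive), *Smad7* and *Tgfbr2* (both negative), with 6.24% of all genes called. limma-voom called none, with 0.424% of all genes called. It had 11 members at an unadjusted p under 0.05, a share not computed over all genes for this tool.

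*Bmpr1a* had 416, 5669 and 1497 reads in primordial *in vivo* and 17, 13 and 24 in primordial *in vitro* oocytes, against 0, 827 and 116 in primary *in vivo* and 4495, 605 and 3745 in primary *in vitro* oocytes. The *in vitro* libraries were thus the lower ones at the primordial stage, and at the primary stage 2 of the 3 were above all *in vivo* libraries. The difference was 9.60 log2 (SE 4.55, edgeR adjusted p = 0.384). *Bmp7*, a BMP ligand, had 2346, 0 and 7995 reads in primordial *in vivo* and 0, 0 and 33 in primordial *in vitro* oocytes, and 0, 268 and 0 in primary *in vivo* and 546, 696 and 255 in primary *in vitro* oocytes. Its difference was 10.69 log2 (SE 4.73, edgeR adjusted p = 0.342). *Acvr2a*, with the smallest p of the members (edgeR adjusted p = 0.178), had 7689 reads in a primordial *in vivo* and 2633 in a primary *in vitro* library and at most 15 in the other 10. *Tgfb2* had most of its LCM reads in primary *in vivo* replicate 3 (4515) and primordial *in vitro* replicate 3 (1356), at an edgeR adjusted p of 0.322.

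Other genes of these pathways were read from a list of 43 ligands, extracellular antagonists, co-receptors, Smad regulators and target genes outside the family names, of which 36 had TPM values. Of 26 tested in MII and 32 tested in LCM oocytes, edgeR called none in any of the 5 comparisons. At an unadjusted p under 0.05, 4 were higher and 2 lower *in vitro* in MII oocytes (10.2% of all genes passed), none higher and 3 lower in primordial oocytes (11.7% of all genes), and 2 higher and 3 lower in primary oocytes (9.66%). Between the stages 4 were higher and 1 lower in primary oocytes (12.4% of all genes), and 3 differences between the culture effects were positive and none negative (11.5%). The smallest adjusted p in MII oocytes was that of *Grem1*, a secreted BMP antagonist, which was at 0 in the 3 *in vivo* libraries and at 2.34, 1.92 and 1.63 TPM *in vitro* (edgeR adjusted p = 0.142).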

How the data were processed

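RNA-seq was analysed in 18 libraries grouped by their titles. The authors used Trim Galore 0.4.1 for trimming, TopHat2 for alignment (mm10) and featureCounts for gene counts; the deposited counts are raw and the deposited TPM are scaled by the authors for gene length and library size. Strand and multimapping settings are not given in the sources used here. Genes were chosen by symbol in the TPM table and joined to the counts by Ensembl identifier; coordinates are from GENCODE (GRCm38), which held all 55. Members, roles and lists were chosen with earlier results of these data known. Counts were tested with edgeR 4.0.16 (quasi-likelihood, robust, TMM; R 4.3.3) over all genes with at least 10 counts, in 1 model of the 12 LCM and 1 of the 6 MII libraries, with Benjamini-Hochberg adjustment over all genes tested; scripts were tested on simulated data. Floors of 3 reads give lower limits of fold changes. Biological coefficients of variation were 2.02 (LCM) and 0.726 (MII). Named were the 5 members with the smallest p in each comparison, the 10 highest by mean TPM in MII and in LCM libraries, *Smad6* and *Smad7*; further names, including members called by other tools, were chosen after their values were seen. Alternatives were DESeq2 1.42.0, limma-voom and limma on log2 TPM (limma 3.58.1), other scaling and filters, no robust estimation, no fold threshold, a replicate block, fits of 2 groups and leaving out each library.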

Additional observations from a re-analysis of the deposited data

How the results depend on the processing

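edgeR called 0 of the 55 genes in all 5 comparisons, and this stayed 0 with DESeq2's size factors, filterByExpr, no robust estimation, no fold change threshold and limma on log2(TPM + 1) or log2(TPM + 0.1), and, for the primordial and the primary comparison, in fits of only the 2 groups compared. In MII oocytes the count was 2 with DESeq2, with limma-voom and with no filter on low counts (*Gdf1* and *Inhba* each time), and 0 to 2 when 1 library was left out, the 2 being *Bmp5* and *Gdf1* without *in vivo* replicate 1; over all genes, 60 calls became 337, 507, 263 and 11 to 378, and 36 with limma on log2(TPM + 0.1). DESeq2 gave 6 members for primordial culture, 1 for the stages and 3 for the difference between the culture effects, and limma-voom gave 1 for primordial culture. In the 4 LCM comparisons leaving out any 1 library gave 0. Direction was followed for the 5 members with the smallest p in each comparison, and none of them reversed in a fit that kept it. A fit whose filter dropped a member could not show a reversal, and members named for other reasons were not followed. The replicate numbers do not pair the samples: deviations of same-numbered libraries correlated between -0.066 and 0.090, and with the replicate block the count was 0 in all 5 comparisons. The cause of these changes was not tested. Depth limits a gene with no read to a level under 3 reads, and the spread between LCM replicates limits what these tests can call.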
